A study of Homo sapiens with 6 samples.

Results

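The primary cilium is a microtubule-based antenna that grows from a centriole, and its content is set by a gate and a transport system. The transition zone, at the base of the cilium, is the gate: a ring of membrane and soluble proteins that limits what enters and leaves. Intraflagellar transport (IFT) is carried out by trains of protein complexes, in which IFT-B moves cargo towards the tip with kinesin and IFT-A returns it with dynein, while the BBSome is an adaptor that carries membrane proteins out of the cilium. Messenger RNA of 50 genes of these complexes was compared between A549 cells in which CEP20 was knocked down and control cells. CEP20 is a protein of the centriole and the centriolar satellites that is known for a role in cilium formation.

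The 50 genes were chosen by symbol among 60624 genes in the deposited table, as known components of these complexes and with earlier results of these data known. They were 17 genes of the transition zone, 6 of IFT-A, 14 of IFT-B, and 13 of the BBSome, its assembly chaperonins and its ARL GTPases (called BBS and ARL genes below). All 50 were found and all 50 had a mean of at least 1 TPM (a level corrected for transcript length and scaled to the library total), so that all were tested. MKKS had 2 further rows under other identifiers, at 0 to 0.592 and 0.0161 to 1.21 TPM, which were not used.

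A549 cells are a widely used human line derived from a lung adenocarcinoma. Both groups held 3 libraries, made per the methods from the poly(A) fraction of total RNA, from cells harvested 3 days after transfection with either siCTR (control siRNA) or siCEP20 (siRNA against CEP20). The labels do not say which CEP20 siRNA sequence was used or whether the replicates were separate cultures, so the p-values below measure the spread between these libraries, and they list the treatment as plasmid transfection where the protocol names siRNAs. No measurement of cilia belongs to these data. Because the RNA is bulk, fewer cells with a transcript and less transcript per cell cannot be told apart.

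CEP20 itself was at 29.2, 30.5 and 35.1 TPM in siCTR and at 16.2, 15.3 and 17.3 TPM in siCEP20, which was 51.4% of the siCTR mean (log2 fold change -0.92, standard error 0.0915, limma adjusted p = 0.000205). The siCTR libraries listed 14429 to 14600 genes at 1 TPM or more and the siCEP20 libraries 14851 to 14987. The median log2 fold change of the 14778 tested genes was 0.13, and 9.4e-05 after libraries were rescaled by the median of ratios, so group medians are also given relative to all tested genes. Of the marker lists, the summed level of 10 A549 and lung epithelial genes was 6360.4 to 6524.3 TPM in siCTR and 7549.5 to 7889.7 TPM in siCEP20, with the lung lineage genes NKX2-1, SFTPC and SFTPB at or near 0. These genes did not move one way. KRT8, KRT18, ALDH1A1, CDH1 and EPCAM were higher, and AKR1C1 (232 to 184 TPM) and AKR1B10 (1021.1 to 898 TPM) were lower, at an adjusted p below 0.05 in limma. The 10 multiciliated cell markers summed to 28.2 to 32.5 TPM in siCTR and to 25.5 to 27 TPM in siCEP20, with SNTN at 0 in every library and FOXJ1 at 0 in all but siCTR replicate 2. They went both ways: CCNO (13.9 to 11.5 TPM) and CCDC78 (7.05 to 3.66 TPM) were lower and PIFO (1 to 1.96 TPM) was higher at an adjusted p below 0.05 in limma. The 7 fibroblast markers summed to 12.1 to 15.2 against 31.2 to 35.1 TPM, nearly all from COL1A1 and THY1, with DCN and COL1A2 at 0. The 6 leukocyte markers summed to 15.6 to 23.7 against 27.6 to 46.3 TPM, nearly all from CD68, and the 5 endothelial markers stayed below 0.2 TPM. The part of these lists in the results below was not tested.

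Many ciliary genes carry an X-box near their start site, a palindrome bound by RFX transcription factors that is made of a pair of arms a few bases apart. The promoter windows of 6 members are shown because they are the members called higher in which RefSeq's window held an arm, together with the transition zone gene that fell furthest. Each runs 5′ to 3′ on the gene's own strand, from 250 bases before the annotated start to 50 bases after it (RefSeq, GRCh38.p14). Capitals mark the arm GTTGCC or its complement GGCAAC and, where present, the whole X-box. The windows are TCTN1 at chr12:110613879-110614178 (plus strand), TCTN3 at chr10:95693878-95694177 (minus), IFT122 at chr3:129439974-129440273 (plus), IFT74 at chr9:26946860-26947159 (plus), IFT81 at chr12:110124107-110124406 (plus) and B9D2 at chr19:41364100-41364399 (minus).
TCTN1: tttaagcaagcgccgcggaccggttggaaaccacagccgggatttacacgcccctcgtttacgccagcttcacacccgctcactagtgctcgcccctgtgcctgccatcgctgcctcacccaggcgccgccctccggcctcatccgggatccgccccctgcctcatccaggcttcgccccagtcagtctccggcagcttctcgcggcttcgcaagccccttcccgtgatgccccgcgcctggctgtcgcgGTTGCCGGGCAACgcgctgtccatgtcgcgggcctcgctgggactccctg
TCTN3: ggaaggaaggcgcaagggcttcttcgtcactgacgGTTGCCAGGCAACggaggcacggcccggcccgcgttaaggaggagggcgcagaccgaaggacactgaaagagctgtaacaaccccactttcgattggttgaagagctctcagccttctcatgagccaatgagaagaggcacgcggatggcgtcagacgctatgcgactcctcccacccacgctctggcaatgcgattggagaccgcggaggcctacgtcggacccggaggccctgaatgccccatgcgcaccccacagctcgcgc
IFT122: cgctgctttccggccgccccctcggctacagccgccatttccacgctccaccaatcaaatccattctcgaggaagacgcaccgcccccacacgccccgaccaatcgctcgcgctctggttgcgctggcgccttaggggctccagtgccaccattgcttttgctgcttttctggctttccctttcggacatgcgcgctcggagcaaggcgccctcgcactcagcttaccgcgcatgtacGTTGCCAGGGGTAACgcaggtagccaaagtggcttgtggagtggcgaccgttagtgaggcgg
IFT74: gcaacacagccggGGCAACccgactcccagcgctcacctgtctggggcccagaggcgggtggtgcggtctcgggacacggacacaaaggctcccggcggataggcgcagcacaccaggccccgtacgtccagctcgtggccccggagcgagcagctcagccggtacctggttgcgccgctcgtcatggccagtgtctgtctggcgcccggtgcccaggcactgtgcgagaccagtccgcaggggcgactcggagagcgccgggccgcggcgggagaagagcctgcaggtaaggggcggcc
IFT81: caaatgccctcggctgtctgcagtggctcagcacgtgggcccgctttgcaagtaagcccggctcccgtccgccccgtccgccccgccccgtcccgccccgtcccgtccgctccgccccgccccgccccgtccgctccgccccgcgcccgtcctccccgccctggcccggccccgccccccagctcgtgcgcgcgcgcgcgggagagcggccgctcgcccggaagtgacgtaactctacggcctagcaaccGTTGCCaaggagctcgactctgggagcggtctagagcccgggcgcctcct
B9D2: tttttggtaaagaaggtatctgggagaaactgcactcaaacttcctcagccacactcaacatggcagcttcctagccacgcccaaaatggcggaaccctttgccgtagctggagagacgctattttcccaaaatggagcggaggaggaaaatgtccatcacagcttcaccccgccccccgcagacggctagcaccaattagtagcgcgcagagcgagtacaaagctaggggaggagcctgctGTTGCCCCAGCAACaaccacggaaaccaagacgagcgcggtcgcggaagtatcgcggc

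In TCTN1, as in TCTN3, the X-box is made of the arm GTTGCC and its complement GGCAAC around a short spacer. The TCTN1 X-box has its first base on the RefSeq start site. In GENCODE the gene begins upstream of that site, at 110614027. In TCTN3 another X-box lies further upstream, at -215 to -203 from the RefSeq start, next to the first base of the gene in GENCODE. The X-box of IFT122 lies at -12 to 2, in a window of a start site downstream of the gene's first base in GENCODE, 129429607. That of B9D2 lies at -8 to 5. IFT74 and IFT81 hold a single arm each in the windows printed, for IFT74 at -237 to -232. A further RefSeq window of IFT74, from 26956162, holds an arm at -28 to -23. A search of both strands for GTTGCC found it in the promoters of 20 of the 45 member genes with a RefSeq window, or 44.4%, against 14.6% of all 27305 genes with a window and 17% of the tested genes with one. The X-box, with a spacer of up to 3 bases and some degenerate positions, was found in 8 of 45 member genes, or 17.8%, against 1.61% of all genes and 2.07% of the tested genes. An arm inside an X-box counts in both searches, and BBS9, IFT22, TCTN2, TMEM67 and WDR35 had no window.

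The 8 members with an X-box were TCTN1, TCTN3, B9D1, B9D2 and TMEM107 of the transition zone, IFT122, IFT57 and BBIP1. They did not move one way: the log2 fold change ran from -0.53 for B9D2 to 1.02 for TCTN1, with a median of 0.18 against 0.22 for the 37 members without an X-box. For the arm, the median was 0.20 in the 20 genes with it and 0.22 in the 25 without it. Counted by the call below, the arm was in 5 of the 7 genes called higher that had a window (71.4%) and in 15 of the 38 others (39.5%), and the X-box in 3 of 7 (42.9%) and 5 of 38 (13.2%), as descriptions of few genes. A match of letters in these windows is a description of the sequence and does not show binding.

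Knockdown of CEP20 was accompanied by higher levels of 9 of the 50 genes at an adjusted p below 0.05 and a fold change above 1.5, a share of 18% beside 11.2% of all tested genes. These were TCTN1, TCTN2, TCTN3, TMEM67, TMEM216 and RPGRIP1L of the transition zone, IFT122 of IFT-A, and IFT74 and IFT81 of the IFT-B core. None of the 13 BBS and ARL genes was called with all libraries and the main settings. No member was called lower (adjusted p below 0.05 and a fold change below 0.67), beside 4.61% of all tested genes. At an adjusted p below 0.05 alone, 21 members were higher, or 42% beside 30.2% of all tested genes, and 2 were lower, B9D2 and IFT20, or 4% beside 13.2%. The number higher was 15 to 19 with a library left out and 15 with no filter on low values.

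**Figure D1:**
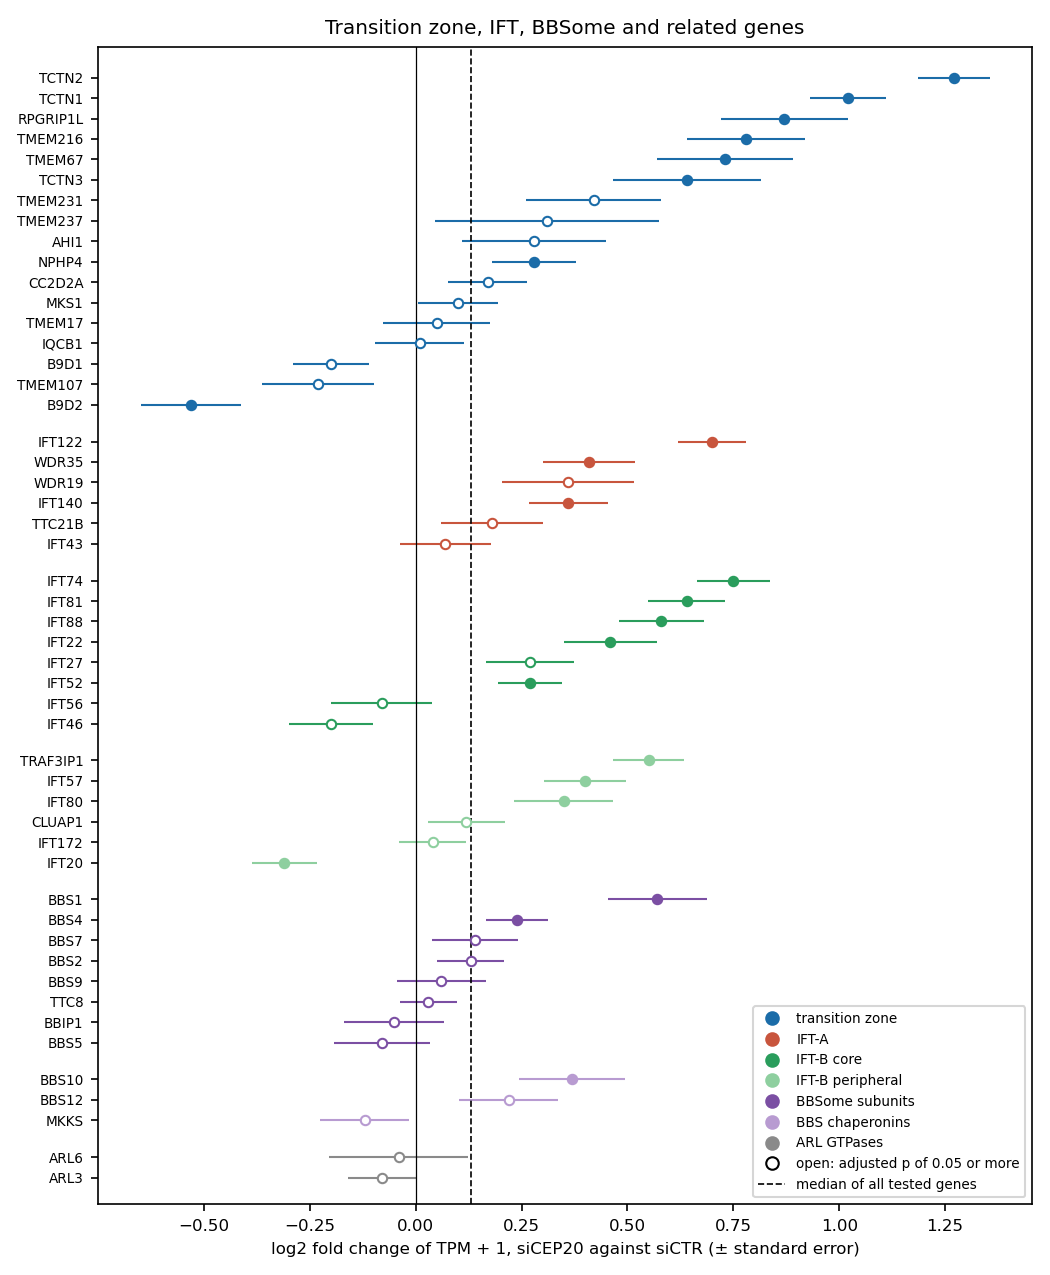
Log2 fold change of TPM + 1 between siCEP20 and siCTR for the 50 genes, in 7 groups, with the limma standard error as bars (3 libraries per group). Filled points have an adjusted p below 0.05, the dashed line is the median of all tested genes at 0.13, and the highest and lowest points, TCTN2 at 1.27 and B9D2 at -0.53, both belong to the transition zone.

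In 23 members every siCEP20 library lay above every siCTR library, beside 38.4% of all tested genes, and in 3 members (B9D1, B9D2 and IFT20) every siCEP20 library lay below, beside 17%. The groups overlapped for the other 24. With 3 libraries against 3, an exact two-sided permutation test of a single gene cannot go below p = 0.1, and each member whose groups did not overlap had that value. After rescaling by the median of ratios, 14 members passed as higher at an adjusted p below 0.05, beside 20.1% of all tested genes, and 5 were lower, beside 21.6%. The 5 were B9D1, B9D2, TMEM107, IFT46 and IFT20. Those that no longer passed as higher were TCTN3, NPHP4, IFT140, IFT52, IFT80, BBS4 and BBS10. In that scaling 6 members were called higher, without TCTN3 (log2 fold change 0.49), IFT122 (0.55) and IFT81 (0.50), and B9D2 was called lower at -0.68. Of all 14778 tested genes, 894 were called higher and 1103 lower in that scaling. Under quantile normalization TMEM67 was lost as well (0.56), along with TCTN3 (0.57), IFT122 (0.55) and IFT81 (0.50). There 923 of all tested genes were called higher and 1016 lower.

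The transition zone held the widest range of fold changes of the 4 complexes. Of its 17 genes, 6 were called higher (35.3%, beside 11.2% of all tested genes), 7 were higher at an adjusted p below 0.05 (41.2%, beside 30.2%), and B9D2 was lower (5.88%, beside 13.2%). Their median log2 fold change was 0.28, or 0.15 above the median of all tested genes. The summed level of the 17 genes was 320, 359 and 349 TPM in siCTR and 402, 428 and 457 TPM in siCEP20.

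The tectonics TCTN1, TCTN2 and TCTN3 are related secreted and membrane proteins of the transition zone that are needed for Hedgehog signalling in the cilium. TCTN2 was at 6.75, 7.19 and 7.57 TPM in siCTR and at 19, 19.2 and 17.8 TPM in siCEP20, which was 2.6 times the control mean and the largest change of the 50 genes. Its log2 fold change was 1.27 with a standard error of 0.0848 (limma adjusted p = 4.91e-05). TCTN1 was at 23.4, 28.2 and 24.5 TPM in siCTR and at 50.5, 56.8 and 50.5 TPM in siCEP20, with a log2 fold change of 1.02 and a standard error of 0.0893 (limma adjusted p = 0.000114). For both genes the 2 groups were far apart, and the call held in all 15 alternatives run.

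TCTN3 was the most abundant tectonic, at 50.4, 67.4 and 49.9 TPM in siCTR and at 73.2, 79 and 114 TPM in siCEP20. The siCEP20 replicate 3 value stood well above the other two, and the lowest siCEP20 value was close to the highest siCTR value. The log2 fold change of 0.64 had a standard error of 0.175 (limma adjusted p = 0.0186). The call was lost without siCTR replicate 1 (adjusted p = 0.0685), without siCTR replicate 3 (adjusted p = 0.0585), under the median of ratios (adjusted p = 0.0577) and with no filter on low values (adjusted p = 0.0968). Without siCEP20 replicate 3, the highest library, the log2 fold change was 0.45, and under quantile normalization 0.57, both below the fold change threshold. Within a library, where scaling between libraries has no effect, the ratio of TCTN2 to TCTN1 was 0.288, 0.255 and 0.309 in siCTR and 0.377, 0.337 and 0.354 in siCEP20, with no overlap. That of TCTN3 to TCTN1 was 2.15, 2.39 and 2.04 in siCTR and 1.45, 1.39 and 2.25 in siCEP20, which overlapped.

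TMEM67 and TMEM216 encode membrane proteins of the gate, and RPGRIP1L is a scaffold on which other transition zone proteins assemble. TMEM67 was at 4.87, 5.02 and 6.58 TPM in siCTR and at 9.52, 7.96 and 11.9 TPM in siCEP20 (log2 fold change 0.73, standard error 0.161, limma adjusted p = 0.00773). TMEM216 was at 13.4, 14.7 and 18.8 TPM in siCTR and at 27.4, 23.8 and 31.2 TPM in siCEP20 (log2 fold change 0.78, standard error 0.139, limma adjusted p = 0.00281). RPGRIP1L was at 5.36, 5.87 and 7.84 TPM in siCTR and at 11.5, 14.3 and 11.2 TPM in siCEP20 (log2 fold change 0.87, standard error 0.15, limma adjusted p = 0.00246). In each of the 3 genes the siCTR library with the highest value was replicate 3, and it still lay below all siCEP20 libraries. RPGRIP1L overlaps FTO on the other strand, and whether the quantification used strand is not given in the sources used here, although the methods describe libraries that mark the strand and an alignment with default settings.

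The B9 domain proteins MKS1, B9D1 and B9D2 form a complex at the gate together with the tectonics and their partners, and none of the 3 genes passed the test as higher. B9D2 was at 25.1, 20.6 and 23.3 TPM in siCTR and at 14.4, 18.4 and 14.1 TPM in siCEP20, with a log2 fold change of -0.53 and a standard error of 0.119 (limma adjusted p = 0.00788). The siCEP20 libraries were all lower, at 68% of the control mean, and this gene lay just outside the fold change threshold. B9D2 overlaps TMEM91 on the other strand. B9D1 was the most abundant of the 50 genes, at 93.9, 106 and 96.5 TPM in siCTR and 88.8, 75.3 and 93.4 TPM in siCEP20, a log2 fold change of -0.20 (limma adjusted p = 0.101). MKS1 was at 12.8 TPM in siCTR and 13.9 TPM in siCEP20, with a 95% interval of the log2 fold change from -0.11 to 0.32. The ratio of B9D2 to TCTN2 within a library was 3.71, 2.87 and 3.08 in siCTR and 0.758, 0.959 and 0.791 in siCEP20, whereas the ratio of B9D2 to B9D1 overlapped between the groups (0.195 to 0.267 against 0.151 to 0.244).

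**Figure D2:**
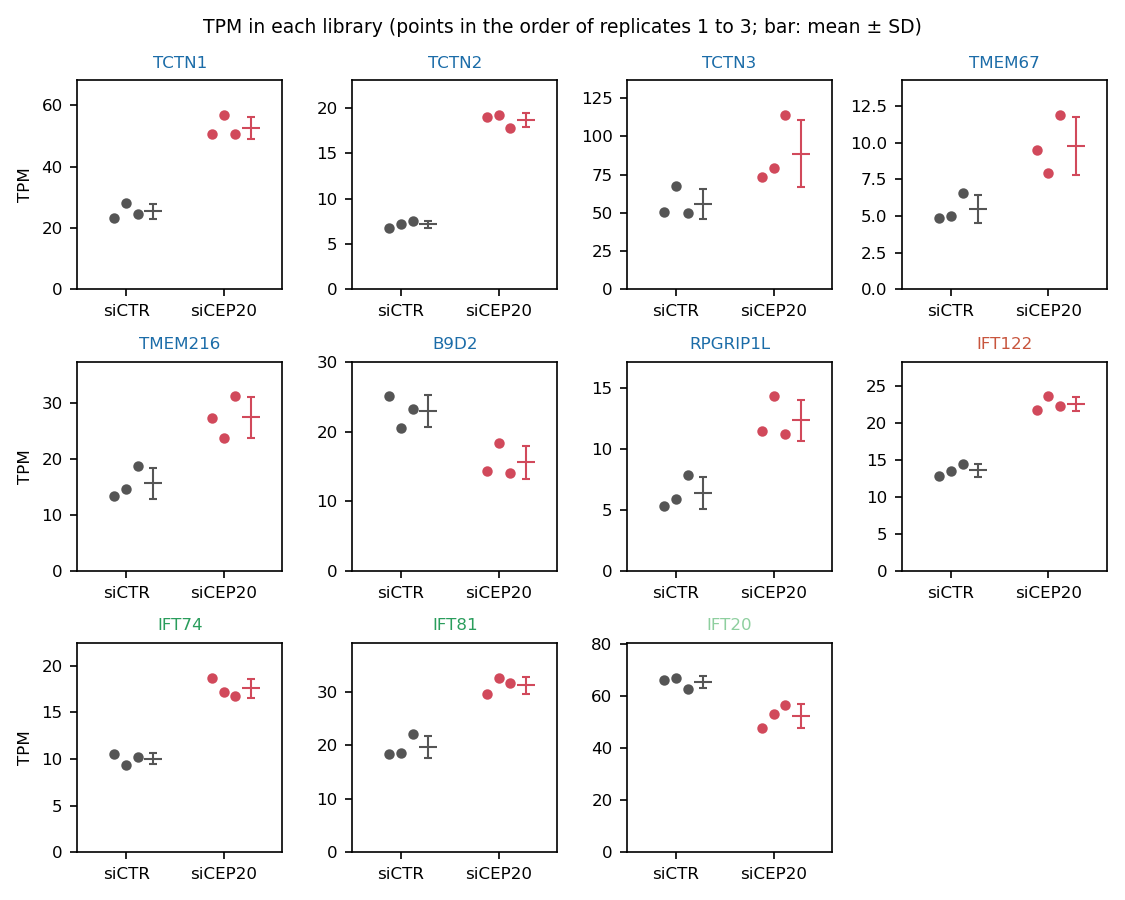
TPM in each of the 6 libraries for the 9 members called higher and the 2 members lower at an adjusted p below 0.05, with the mean and SD of 3 libraries beside the points and every axis starting at 0. The groups do not overlap in any panel; TCTN2 and TCTN1 show the widest gaps and TCTN3 the widest spread, from 73.2 to 114 TPM in siCEP20.

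The other transition zone genes lay nearer to the control. NPHP4, a partner of RPGRIP1L, was at 9.56, 9.2 and 8.29 TPM in siCTR and 10.7, 12.3 and 10.6 TPM in siCEP20 (log2 fold change 0.28, limma adjusted p = 0.0491), a result lost when any 1 of the 6 libraries was left out (adjusted p = 0.0555 to 0.159). TMEM231 was called higher without siCTR replicate 2 (log2 fold change 0.61, limma adjusted p = 0.00503) and lay at the threshold of 0.05 when only genes averaging 5 TPM or more were tested. AHI1 passed without siCTR replicate 3 (adjusted p = 0.0257 in limma). TMEM231 (log2 fold change 0.42), AHI1 (0.28), CC2D2A (0.17), TMEM17 (0.05), IQCB1 (0.01) and TMEM107 (-0.23) did not pass in the test over all libraries and genes, with adjusted p-values of 0.0629 to 0.962 in limma. TMEM237 was at 15.8, 12 and 18 TPM in siCTR and 14.5, 30.3 and 15.3 TPM in siCEP20, so that its mean difference came from siCEP20 replicate 2 (limma adjusted p = 0.373).

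IFT-A, which returns cargo to the cell body and brings membrane proteins into the cilium, had 6 genes with positive fold changes, of which 3 passed at an adjusted p below 0.05 (50%, beside 30.2% of all tested genes) and 1 was called (16.7%, beside 11.2%). Their median log2 fold change was 0.36, or 0.23 above that of all tested genes. IFT122, a core subunit, was at 12.8, 13.5 and 14.5 TPM in siCTR and at 21.8, 23.6 and 22.3 TPM in siCEP20. The groups were well separated, with a log2 fold change of 0.70 and a standard error of 0.0805 (limma adjusted p = 0.000392). IFT122 overlaps MBD4 on the other strand.

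The subunits IFT140 (15.1, 16.6 and 16.4 against 20.6, 23.3 and 19 TPM) and WDR35 (11.9, 13.4 and 15.4 against 17.9, 19.9 and 17.1 TPM) rose by less than the threshold, with log2 fold changes of 0.36 and 0.41 (limma adjusted p = 0.0144 and 0.0165). Without siCEP20 replicate 2 neither passed (adjusted p = 0.0511 and 0.0622). WDR19 at 0.36 and TTC21B at 0.18 overlapped between the groups, and WDR19 passed without siCTR replicate 3 (adjusted p = 0.014). IFT43, the small subunit and the most abundant of the 6, was at 47.9, 37.5 and 38.4 TPM in siCTR and 38.9, 45.5 and 45.1 TPM in siCEP20. Its log2 fold change of 0.07 had a 95% interval from -0.18 to 0.32, and its sign turned to -0.08 under the median of ratios and to -0.03 under quantile normalization. IFT43 overlaps TTLL5 on the same strand.

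IFT-B is built of a core and a peripheral part, and the 2 parts are given separately. Of the 8 core genes, 2 were called (25%, beside 11.2% of all tested genes) and 5 were higher at an adjusted p below 0.05 (62.5%, beside 30.2%), with a median log2 fold change of 0.37. Under the median of ratios 1 was called higher, beside 894 of all 14778 tested genes. Of the 6 peripheral genes none was called, beside 11.2% of all tested genes called higher, and 3 were higher (50%, beside 30.2%). IFT20 was lower (16.7%, beside 13.2% of all tested genes). The median log2 fold change of the 6 genes was 0.24. Over the 14 genes the median was 0.31, or 0.18 above all tested genes.

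IFT74 and IFT81 encode the dimer of the core that binds tubulin, the building block of the axoneme. IFT74 was at 10.5, 9.39 and 10.2 TPM in siCTR and at 18.7, 17.2 and 16.8 TPM in siCEP20 (log2 fold change 0.75, standard error 0.0858, limma adjusted p = 0.000372). IFT81 was at 18.4, 18.6 and 22.1 TPM in siCTR and at 29.5, 32.6 and 31.6 TPM in siCEP20 (log2 fold change 0.64, standard error 0.0905, limma adjusted p = 0.000946). Both groups were separate for each gene, and the ratio of IFT74 to IFT81 overlapped, at 0.571, 0.504 and 0.462 in siCTR and 0.633, 0.527 and 0.532 in siCEP20. IFT74 overlaps PLAA on the other strand. IFT88, which has long been used as a knockout to remove cilia, was at 10.3, 10.9 and 12.1 TPM in siCTR and 17.4, 18.5 and 15.3 TPM in siCEP20, and its log2 fold change of 0.58 lay just under the threshold (limma adjusted p = 0.00262). IFT88 was called without siCTR replicate 3 (0.64) or siCEP20 replicate 3 (0.65), and with a pseudocount of 0.1 (0.61).

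Of the 2 small GTPase subunits, IFT22 was higher (30.7, 41.2 and 36.4 against 47, 53.7 and 48.5 TPM, log2 fold change 0.46, limma adjusted p = 0.0105) and IFT27 did not pass (log2 fold change 0.27, limma adjusted p = 0.0667). After correction for length and GC content IFT27, with 1073 bases, passed at 0.42 (adjusted p = 0.0184 in limma). IFT52 was at 32.2, 33.3 and 36.5 TPM in siCTR and 39.3, 43.6 and 40.7 TPM in siCEP20, a log2 fold change of 0.27 (limma adjusted p = 0.0201) that did not pass without siCTR replicate 1, siCTR replicate 2 or siCEP20 replicate 2 (adjusted p = 0.0573, 0.0617 and 0.0735). The ratio of IFT88 to IFT52, which contact each other in the core, was 0.321, 0.327 and 0.331 in siCTR and 0.442, 0.425 and 0.375 in siCEP20. That IFT88 to IFT52 ratio did not overlap between the groups. IFT46 was at 21.1, 21.8 and 23.4 TPM in siCTR and 17.3, 18.6 and 21.8 TPM in siCEP20, with a log2 fold change of -0.20 (limma adjusted p = 0.141), which passed at -0.34 under the median of ratios and at -0.29 without siCEP20 replicate 3 (adjusted p = 0.0443), and it overlaps ARCN1 on the other strand. IFT56, at -0.08, overlapped between the groups.

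In the peripheral part, a pair of direct partners went in opposite directions. TRAF3IP1, a microtubule-binding subunit, was at 10.7, 12.1 and 11.8 TPM in siCTR and at 16.8, 18.1 and 17 TPM in siCEP20 (log2 fold change 0.55, standard error 0.0838, limma adjusted p = 0.00141). IFT20, a small subunit that is also found at the Golgi, was at 66.3, 67.1 and 63 TPM in siCTR and at 47.7, 53.2 and 56.8 TPM in siCEP20 (log2 fold change -0.31, standard error 0.0769, limma adjusted p = 0.012). The ratio of IFT20 to TRAF3IP1 was 6.21, 5.57 and 5.32 in siCTR and 2.84, 2.95 and 3.35 in siCEP20. IFT20 has a short transcript of 860 bases and overlaps TMEM97 on the other strand, and after correction for length and GC content its log2 fold change was -0.17 (adjusted p = 0.0853 in limma).

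IFT57 was higher (17.6, 17.5 and 21.5 against 24.6, 26.4 and 24.2 TPM, log2 fold change 0.40, limma adjusted p = 0.0117), while its dimer partner CLUAP1 did not pass (10.3, 9.21 and 9.51 against 10.6, 11.3 and 10 TPM, log2 fold change 0.12). The ratio of IFT57 to CLUAP1 was 1.71 to 2.26 in siCTR and 2.31 to 2.42 in siCEP20, a narrow separation. IFT80 was higher at a log2 fold change of 0.35 (limma adjusted p = 0.0424), a result lost without any 1 of the libraries other than siCEP20 replicate 2 (adjusted p = 0.0504 to 0.134). IFT172, a large peripheral subunit, was at 12.5, 13.1 and 13.8 TPM in siCTR and 13.5, 13.6 and 13.6 TPM in siCEP20, with a 95% interval of its log2 fold change from -0.14 to 0.23.

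**Figure D3:**
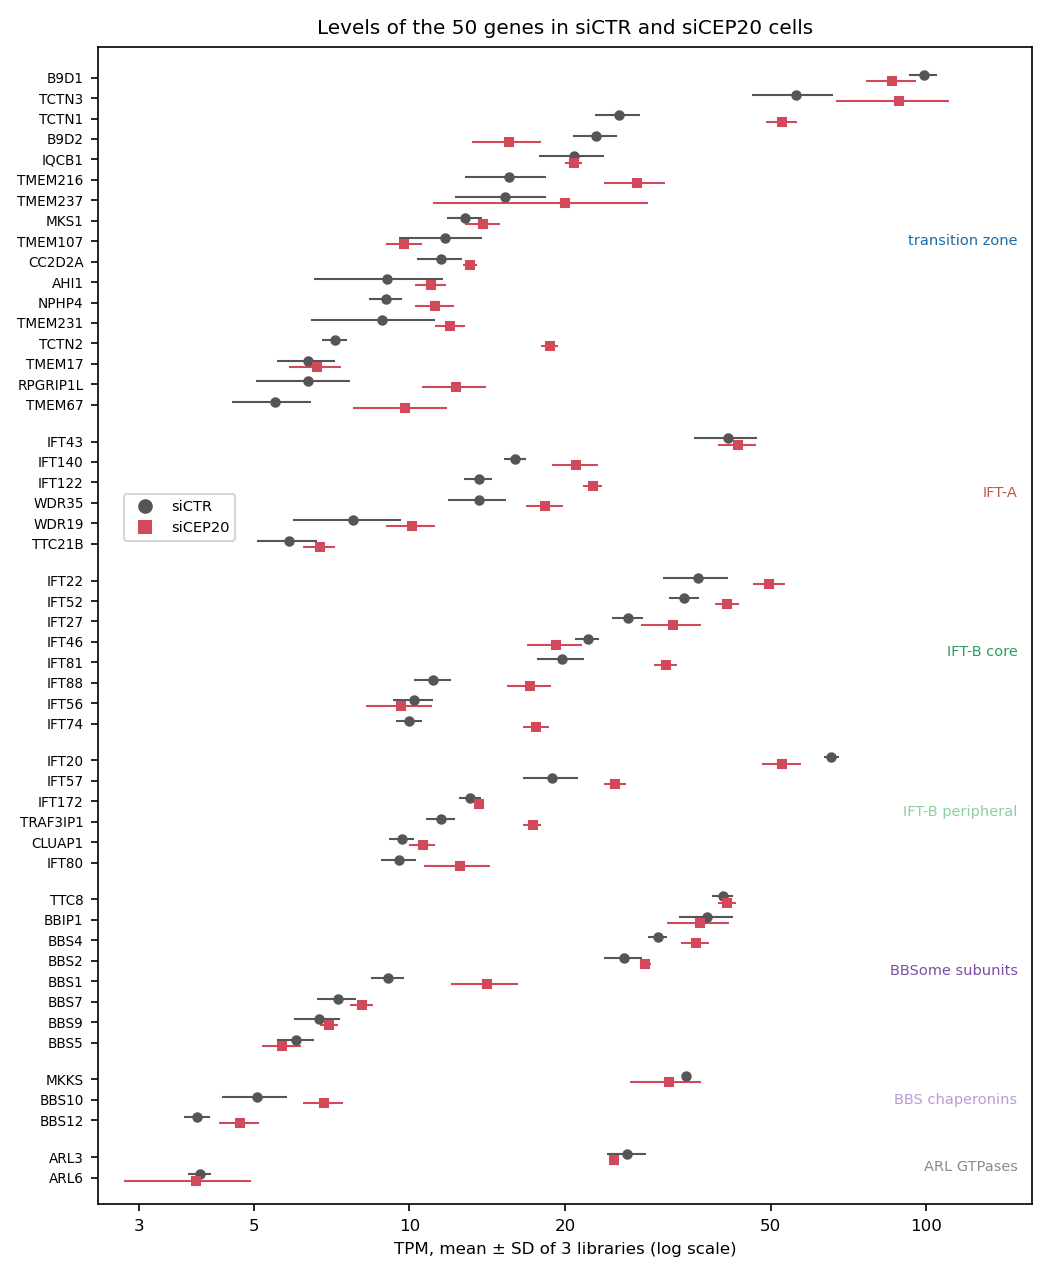
Mean TPM ± SD of 3 libraries for the 50 genes in siCTR (circles) and siCEP20 (squares), on a log axis, ordered by the siCTR level within each of 7 groups. Levels in siCTR span 3.89 TPM for BBS12 to 98.7 TPM for B9D1, and the symbols of the BBSome subunits lie close together except for BBS1.

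The 8 BBSome subunits had a median log2 fold change of 0.10, which relative to all tested genes was -0.03. Of the 13 BBS and ARL genes, 3 were higher at an adjusted p below 0.05 (23.1%, beside 30.2% of all tested genes) and none was lower. BBS1, the subunit that binds the GTPase ARL6, was at 8.46, 9.78 and 9.02 TPM in siCTR and at 16.4, 13.2 and 12.5 TPM in siCEP20. The groups did not overlap, with a log2 fold change of 0.57 and a standard error of 0.117 (limma adjusted p = 0.00539), and BBS1 overlaps ZDHHC24 on the other strand. BBS1 was called without siCTR replicate 2 (0.62), siCEP20 replicate 2 (0.61) or siCEP20 replicate 3 (0.64), and with a pseudocount of 0.1 (0.62). BBS4 was at 29.3, 31.6 and 29.7 TPM in siCTR and 33.6, 35.8 and 38 TPM in siCEP20 (log2 fold change 0.24, limma adjusted p = 0.0311), and did not pass without siCTR replicate 1 or 3 or siCEP20 replicate 2 or 3 (adjusted p = 0.0725 to 0.102).

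The remaining subunits had log2 fold changes of 0.14 (BBS7), 0.13 (BBS2), 0.06 (BBS9), 0.03 (TTC8), -0.05 (BBIP1) and -0.08 (BBS5), and their groups overlapped. BBS5, the lowest, was at 5.48, 6.16 and 6.47 TPM in siCTR and 5.15, 6.15 and 5.73 TPM in siCEP20, with a 95% interval from -0.33 to 0.18. TTC8, the most abundant subunit, was at 38.3, 42.1 and 40.7 TPM in siCTR and 42.2, 42.1 and 39.4 TPM in siCEP20, with a 95% interval from -0.12 to 0.19. A change as large as that of BBS1 lies outside the intervals of these 6 genes.

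Of the chaperonin-like proteins that assemble the BBSome, BBS10 was at 4.51, 5.88 and 4.79 TPM in siCTR and at 7.09, 7.24 and 6.13 TPM in siCEP20 (log2 fold change 0.37, standard error 0.125, limma adjusted p = 0.0422), a result lost without siCTR replicate 1 or 3 or siCEP20 replicate 1 or 2 (adjusted p = 0.101 to 0.123). BBS12 (log2 fold change 0.22) did not pass (limma adjusted p = 0.165), and it had the lowest siCTR mean of the 50 genes, 3.89 TPM. MKKS was at 34, 34.4 and 34.2 TPM in siCTR and 37.4, 28.2 and 29.6 TPM in siCEP20, where replicate 1 was high and the other two low (log2 fold change -0.12, 95% interval -0.36 to 0.13). Without siCEP20 replicate 1 it passed as lower (log2 fold change -0.24, limma adjusted p = 0.0468).

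ARL6, the GTPase that brings the BBSome to membranes, was at 4.17, 3.84 and 3.78 TPM in siCTR and 5.08, 3.15 and 3.37 TPM in siCEP20. Its siCEP20 libraries lay on both sides of the control, and the log2 fold change was -0.04 with a 95% interval from -0.42 to 0.34. ARL3, which releases lipidated cargo inside the cilium, was at 28.8, 24.3 and 26.1 TPM in siCTR and 24.5, 25.2 and 25.1 TPM in siCEP20, with a log2 fold change of -0.08 and a 95% interval from -0.26 to 0.11. Neither GTPase gene passed the test.

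Set side by side, the summed level of the transition zone genes was 343 ± 20.5 TPM in siCTR and 429 ± 27.5 TPM in siCEP20 (SD, n = 3 each), a ratio of 1.25. The ratio was 1.24 for IFT-A (98.1 ± 3.4 to 122 ± 8.19 TPM), 1.17 for IFT-B (298 ± 11 to 349 ± 12.1 TPM) and 1.05 for the BBS and ARL genes (237 ± 7.25 to 249 ± 5.34 TPM). Within IFT-B it was 1.28 for the core and 1.03 for the peripheral part, in which IFT20 made up the largest share. Within a library, the summed transition zone level divided by that of the BBS and ARL genes was 1.4, 1.48 and 1.47 in siCTR and 1.59, 1.7 and 1.88 in siCEP20. The same division gave 0.433, 0.387 and 0.424 against 0.454, 0.519 and 0.496 for IFT-A, and 1.25, 1.24 and 1.29 against 1.33, 1.42 and 1.47 for IFT-B. All 3 ratios were separate between the groups, while that of the transition zone to IFT-A overlapped (3.23 to 3.81 against 3.28 to 3.79). The ratio of the transition zone to IFT-B was 1.12, 1.19 and 1.14 in siCTR and 1.2, 1.2 and 1.28 in siCEP20, a narrow separation. No test was made of a difference between complexes, and a sum is weighted towards abundant genes such as B9D1, TCTN3 and IFT20.

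**Figure D4:**
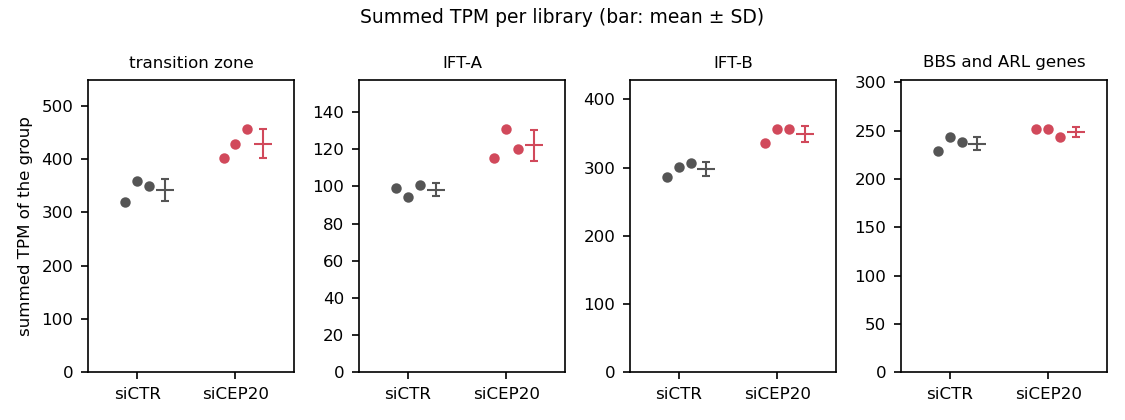
Summed TPM of the transition zone, IFT-A, IFT-B, and BBS and ARL genes in each of the 6 libraries, with the mean and SD of 3 libraries and axes that start at 0. The siCEP20 libraries lie above the siCTR libraries in the first 3 panels, whereas in the last the lowest siCEP20 value (243 TPM) meets the highest siCTR value (243 TPM).

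Fold changes in these libraries varied with transcript length, and this touches the short members. Across the 14737 tested genes with a known length, Spearman's rho between the length of the canonical transcript and the log2 fold change was 0.254, and across the 50 members 0.311, as descriptions across genes of the same libraries. The 6 members with a transcript below 1500 bases (IFT43, IFT20, B9D1, B9D2, TMEM216 and IFT27) had a median log2 fold change of -0.07, and the other 44 had 0.27. For all tested genes, those medians were -0.04 and 0.17. TMEM216, with 1053 bases, was called higher all the same, and B9D2, with 1007 bases, was lower at -0.53 and at -0.37 after a correction for length and GC content (adjusted p = 0.0366 in limma). After that correction the same number of members, 9, was called higher, beside 1513 of the 14737 tested genes (1659 of 14778 before it). Members higher at an adjusted p below 0.05 numbered 18, against 21 before it. In limma IFT140 (adjusted p = 0.054), IFT80 (0.0932), NPHP4 (0.15) and BBS10 (0.0683) no longer passed, and IFT27 (0.0184) did. Spearman's rho after the correction was 0.122 across the members.

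**Figure D5:**
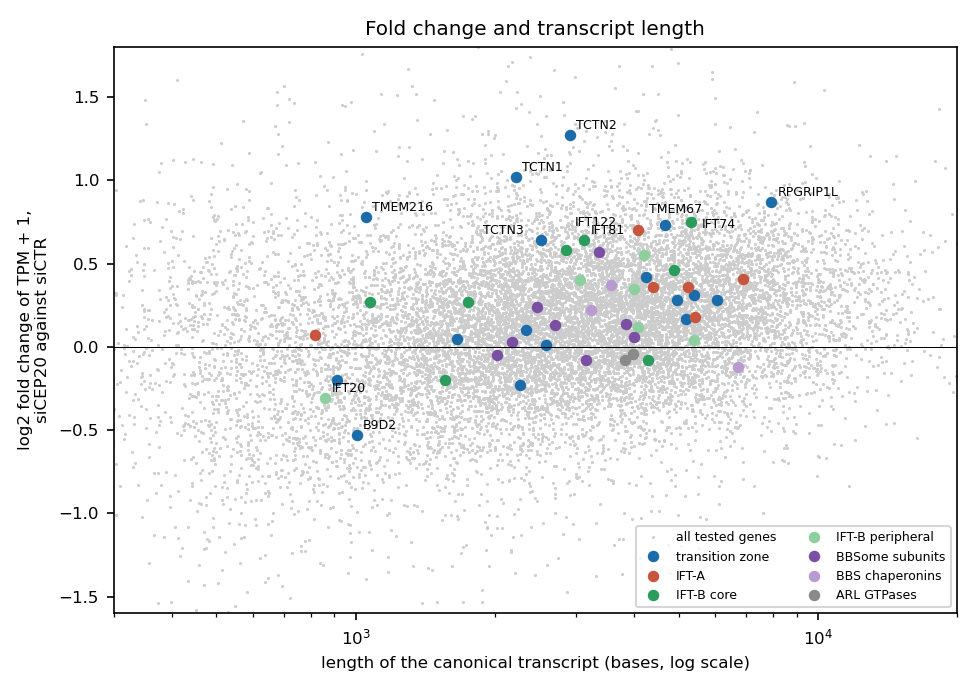
Log2 fold change of TPM + 1 (siCEP20 against siCTR) against the length of the canonical transcript in bases on a log axis, with the 50 members coloured by group over all tested genes in grey. Genes beyond the axes are not drawn. Of the 6 members below 1500 bases 3 are above 0 and 3 below, and of the 44 longer members 36 are above 0. The median of all tested genes was itself -0.04 below 1500 bases and 0.17 at 1500 bases or more.

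Other genes of the pathway were read from the same fit in 4 lists. Of 17 tested genes of the transition zone and of nephronophthisis, a kidney disease of the cilium, 3 were called higher (CEP290, CSPP1 and TOGARAM1), 9 were higher at an adjusted p below 0.05 and TMEM218 was lower. CEP290, which links the microtubules of the transition zone to the membrane, was at 4.55, 3.34 and 3.54 TPM in siCTR and at 5.98, 5.87 and 8.02 TPM in siCEP20 (log2 fold change 0.66, limma adjusted p = 0.00968). The list's median log2 fold change was 0.38, and the shares were 17.6% called and 52.9% higher, beside 11.2% and 30.2% of all tested genes. None of the 3 calls held under the median of ratios, under quantile normalization or after the length and GC correction. Of all tested genes, those settings called 894, 923 and 1513 higher, in that order.

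Of 13 genes of the IFT motors, adaptors and the IFT-B subunits outside the 50, 4 were called higher, 5 were higher at an adjusted p below 0.05 and 1 was lower, with a median of 0.17. The shares were 30.8% called and 38.5% higher, beside 11.2% and 30.2% of all tested genes. Under the median of ratios 2 were called higher and 1 lower, beside 894 and 1103 of all 14778 tested genes. The called genes were DYNC2I1 and DYNC2LI1, an intermediate and a light intermediate chain of the dynein that drives return transport, IFT70A, a subunit of IFT-B, and the kinesin KIF17. DYNC2I1 was at 8.29, 8.4 and 10.2 TPM in siCTR and at 16.2, 17.4 and 16.8 TPM in siCEP20. IFT70A rose from 3.25, 3.12 and 2.7 TPM to 7.21, 6.69 and 5.84 TPM (log2 fold change 0.91, limma adjusted p = 0.000813), whereas its paralog IFT70B was at 3.79, 4.46 and 3.59 against 3.94, 3.79 and 3.87 TPM (95% interval -0.30 to 0.26). Reads that match both paralogs could be split between them in ways the files do not show. KIF3B, a motor subunit of anterograde transport, was lower, at 25.6, 25.4 and 26.4 TPM in siCTR and 17.1, 18 and 19.4 TPM in siCEP20 (log2 fold change -0.49, limma adjusted p = 0.00153).

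Of 20 partners of the BBSome and of lipidated cargo, 3 were called higher and 1 lower, and 10 rose and 3 fell at an adjusted p below 0.05 without the fold threshold. The shares were 15% called higher, 50% higher and 15% lower, beside 11.2%, 30.2% and 13.2% of all tested genes. Under the median of ratios 3 were called higher and 3 lower, and 6 rose and 7 fell by adjusted p alone. Of all 14778 tested genes, that scaling called 894 higher and 1103 lower, and 20.1% rose and 21.6% fell by adjusted p alone. LZTFL1, which binds the BBSome and limits its entry into cilia, was at 8.22, 15.4 and 15.5 TPM in siCTR and at 28, 27.8 and 26.8 TPM in siCEP20 (log2 fold change 1.07, standard error 0.207, limma adjusted p = 0.00409). The siCTR replicate 1 value was well below the other two. The nearly identical GTPase genes RABL2A and RABL2B were also called higher, with reads that may be shared between them. NME3, a nucleoside diphosphate kinase, was called lower, at 50.6, 47 and 41.5 against 24.6, 27 and 22.9 TPM (log2 fold change -0.87, limma adjusted p = 0.000294).

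The list of 16 ciliogenesis transcription factors took in RFX1 to RFX7 by family, whether or not each is known to act in cilia. Of the 16 genes, 9 were tested, RFX5 among them. Of these 9, 2 were called higher, 6 were higher at an adjusted p below 0.05 and none was lower. The shares were 22.2% called and 66.7% higher, beside 11.2% and 30.2% of all tested genes. Under the median of ratios and under quantile normalization 1 was called higher and 1 was lower at an adjusted p below 0.05, and after the length and GC correction 1 was called higher. Of all tested genes, those settings called 894, 923 and 1513 higher, in that order. Under the median of ratios 21.6% of all tested genes were lower at an adjusted p below 0.05. The called genes were GLIS3, at 21.4, 19.1 and 23.6 TPM in siCTR and 41.6, 41 and 44.5 TPM in siCEP20 (log2 fold change 0.96, limma adjusted p = 0.00015), and RFX3, at 2.02, 2.73 and 2.35 TPM in siCTR and 3.33, 4.89 and 4.24 TPM in siCEP20 (log2 fold change 0.61, limma adjusted p = 0.0164). RFX3 is a factor that binds the X-box. FOXJ1 and GMNC, factors of multiciliated cells, were at or near 0 in all libraries, and no relation between these factors and the members was tested.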

How the data were processed

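The authors sequenced poly(A) RNA, selected per the methods from total RNA, of 6 samples of A549 cells (siCTR and siCEP20, 3 libraries each, grouped by the sample labels). Per the labels' processing notes and the methods, the authors trimmed reads with fastp 0.20.1, aligned them to hg38 with HISAT2 2.1.0 and quantified genes with StringTie 2.0; the annotation release is not given in the sources used here. The deposited values are TPM per gene, made by the authors to sum to 1000000 per library, so that the depth in reads is unknown and no counting interval is given. The labels and the methods differ in medium and RNA kit.

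The study tested counts, which were not used here; since the deposited unit is TPM, limma 3.58.1 (R 4.3.3) was fitted to log2(TPM + 1), with an empirical Bayes trend, for the 14778 genes whose mean over the libraries reached 1 TPM, with the Benjamini-Hochberg adjustment over all of them. Calls needed an adjusted p below 0.05 and a fold change above 1.5 or below 0.67. Fold changes on this scale understate those of low genes. The fit was tested on simulated data. Symbols, lengths and overlaps came from GENCODE 44, promoters from RefSeq.

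The members and lists were chosen with earlier results of these data known. Values in every library are given for called members and for the highest and lowest member of each of the 7 groups; other members, the ratios between partner genes and the X-box letters were chosen after values were seen. Of other pathway genes, called genes and the 3 with the smallest adjusted p in a list could be named; KIF3B, IFT70B, TMEM218, FOXJ1 and GMNC were chosen after seeing their values. Alternatives were the pseudocount (0.1), the filter (none, or a mean of at least 5 TPM), scaling by the median of ratios or quantile normalization, no trend, a replicate block, a loess correction for length and GC content (span 0.5), protein-coding genes only, other fold change thresholds, overlapping members left out, and each library left out.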

Additional observations from a re-analysis of the deposited data

How the results depend on the processing

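Of the counts, the group medians and the CEP20 fold change, 152 values under the alternatives stayed as with the main settings and 29 did not. Staying meant within 1.5 times for a count and within the replicate spread for a median. CEP20 was lower at an adjusted p below 0.05 in limma in every alternative. All tested genes called higher numbered 1659, and 894 under the median of ratios, 923 under quantile normalization, 4457 with no fold change threshold and 261 with a 2-fold threshold; those called lower numbered 682, and 1103 under the median of ratios, 1944 with no threshold and 147 at 2-fold. Members called higher numbered 9, and 5 under quantile normalization, 21 with no threshold and 2 at 2-fold. Members called lower numbered 0, and 1 under the median of ratios, 1 under quantile normalization, 2 with no threshold, and 0 to 1 with a library left out (B9D2, without siCTR replicate 2 or siCEP20 replicate 2). At an adjusted p below 0.05, 21 members were higher and 13 when the 15 members that overlap another expressed gene were left out (fewer members counted); 2 were lower, and 5 under the median of ratios, 5 under quantile normalization, 1 after the length and GC correction and 0 without overlapping members.

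Group medians relative to all tested genes moved for the transition zone from 0.15 to 0.24 with no filter and to 0.07 after the length and GC correction, for IFT-A from 0.23 to 0.32 with no filter, for IFT-B from 0.18 to 0.27 with no filter, to 0.14 without overlapping members and over 0.15 to 0.22 with a library left out, and for the BBS and ARL genes from -0.07 to 0.02 with no filter and over -0.12 to 0.00 with a library left out. With no filter the median of all genes was itself 0.04; the cause of the other moves was not tested. Signs turned under at least 1 alternative for 14 members, none of which passed at an adjusted p below 0.05 in any of them: TMEM237, TMEM17, MKS1, IQCB1, TTC21B, IFT172, CLUAP1, BBS2, BBS7, BBS9, TTC8 and BBIP1, besides IFT43 (-0.08 under the median of ratios, -0.03 under quantile normalization) and ARL6 (-0.21 to 0.06 with a library left out, above 0 without siCEP20 replicate 2 or 3).

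The deviations of same-numbered libraries correlated at 0.157, -0.0614 and -0.0623, and not every library correlated best with its own number. With 3 libraries per group, these correlations cannot show whether same-numbered libraries were handled together. With a replicate block, the counts were 9 members called higher, 21 members higher and 2 members lower by adjusted p alone, with TMEM231 in (adjusted p = 0.0358 in limma) and NPHP4 out.

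Levels of a few TPM, as for ARL6, BBS12, TMEM67 and RPGRIP1L, rest on an unknown number of reads, and 3 libraries per group limit the precision of every fold change.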
